A study of Canis lupus familiaris with 58 samples.

Results

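Canine diffuse large B-cell lymphoma (DLBCL) in lymph node biopsies was divided here by the state of the tumour's immunoglobulin heavy chain variable (IGHV) region. The comparison took 18 dogs labelled static and 12 dogs labelled ongoing, 30 of the 58 dogs in the series, and covered every gene on the array. Members were lymph node samples with the pathology diagnosis DLBCL and either of these labels. Samples labelled ND, a code the labels do not explain, were left out, as were marginal zone lymphomas (MZL) and fine needle aspirates. All were client-owned pet dogs with B-cell lymphoma, sampled before treatment, 1 array and 1 biopsy per dog, with total RNA taken from whole tissue. Age, sex and breed were not used. Neither group is a healthy control: static is set against ongoing tumour, and p-values measure the spread between dogs.

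B cells rearrange one heavy chain gene early in life, and in germinal centres its variable region is then mutated. A lymphoma whose clones still acquire such mutations is called ongoing, and one whose clones share a fixed sequence is called static. Germinal centre B cells present antigen to helper T cells on major histocompatibility complex (MHC) class II molecules, in dogs the DLA genes, whose transcription is driven by the co-activator CIITA.

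Levels are RMA values on the log2 scale, so a difference of 1 is a factor of 2. B-cell genes were measured in both groups. MS4A1, which encodes CD20, ranged in static dogs from 6.96 through a median of 12.71 to 13.79, against 12.02, 12.84 and 13.49 in ongoing dogs. A single static dog, dog 22, set that minimum, and all other static dogs were at 11.72 or above. CD79B, part of the B-cell receptor, spanned 8.41 to 12.46 in static and 9.55 to 12.53 in ongoing dogs. Among T-cell genes, CD3D had medians of 13.04 in static and 13.01 in ongoing nodes, and CD5 had medians of 8.17 in static and 8.23 in ongoing nodes. CD3E medians were 9.29 in static and 9.39 in ongoing nodes. Static medians were higher for CD3G (11.2 against 10.55) and CD2 (11.22 against 10.58). The epithelial keratin KRT8 had a median of 3.96 in static and 4.02 in ongoing nodes.

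No gene separated static from ongoing lymphomas at an adjusted p under 0.05. Of 15115 genes tested with limma and Benjamini-Hochberg adjustment, 0 were called, which is 0% of genes, and the smallest adjusted p was 1. At an unadjusted p under 0.05, 149 genes were higher in static dogs (0.986% of genes) and 126 were lower (0.834% of genes). Together these 275 genes were 1.82% of the genes tested. Their median absolute difference was 0.19, and 7 genes in all differed by 1 or more. A rank-sum test also called 0 genes, with 316 at an unadjusted p under 0.05. In no gene did the groups fail to overlap (0% of genes). Every gene difference given below therefore had an adjusted p of 1, and each is reported as a size and a direction that did not pass the test.

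The genes of MHC class II antigen presentation were lower in static than in ongoing nodes in 13 of 17 measured members, with a median difference of -0.24 against -0.00073 over all genes, of which 50.4% were lower. The share at an unadjusted p under 0.05 and lower was 7 of 17, where the background was 0.834%, and 0 of 17 were higher at that p. This list, like those below, was chosen with earlier results of these data known. Many of its members were low in the same static dogs, so the 7 are not independent, and no set test was run. The mean level over the list ranged in static dogs from 10.36 through a median of 11.28 to 11.71, against 11.35, 11.51 and 11.79 in ongoing dogs. The groups overlap, but 12 of 18 static dogs lie below the lowest ongoing dog, where the mean over all genes puts 4 static dogs below it. In bulk tissue, fewer cells carrying class II and less class II RNA per cell cannot be told apart.

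DLA-DOB differed most of the class II members. DLA-DOB, a chain of the DO molecule that restrains peptide loading in B cells, measured 5.81 at the lowest, 9.17 at the median and 10.56 at the highest in static dogs, against 8.78, 10.31 and 11.25 in ongoing dogs. In 7 static dogs it was below every ongoing dog, and 1.41% of all genes had 7 or more such dogs. The difference was -1.25 ± 0.45 (SE; unadjusted p = 0.00983), a static level 0.419 times the ongoing one. Its partner DLA-DOA was 10.90, 11.79 and 12.69 in static dogs, against 11.53, 12.25 and 12.92 in ongoing dogs. That is a difference of -0.52 ± 0.19 (unadjusted p = 0.00914), with 8 static dogs below the ongoing range (8 or more in 0.516% of all genes). DLA-DMA, a chain of the DM molecule that exchanges peptides, was 9.47, 11.66 and 12.53 in static dogs, against 11.34, 12.09 and 12.43 in ongoing dogs (difference -0.58 ± 0.26, unadjusted p = 0.0338). The other DM chain, DLA-DMB, differed by -0.25 ± 0.13 with an unadjusted p of 0.0612.

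The antigen-presenting chains themselves were also lower. DLA-DQB1 was 9.81, 12.86 and 13.65 in static dogs, against 12.53, 13.35 and 13.81 in ongoing dogs, a difference of -0.60 ± 0.26 (unadjusted p = 0.0282). DLA-DQA1 was 10.65, 12.92 and 13.98 in static dogs, against 12.95, 13.33 and 13.72 in ongoing dogs. For DLA-DQA1 9 static dogs lay below the ongoing range, and 0.165% of all genes had 9 or more below it. DLA-DRA, the alpha chain of the DR molecule, was 12.77, 13.91 and 14.16 in static dogs, against 13.86, 14.01 and 14.15 in ongoing dogs. The differences were -0.42 ± 0.21 for DLA-DQA1 and -0.19 ± 0.09 for DLA-DRA, at unadjusted p of 0.0487 and 0.0494. Static dog 17 set the lowest value of each of these chains, and the differences include it. The next lowest static dogs were at 11.66 for DLA-DQB1, 12.4 for DLA-DQA1 and 13.5 for DLA-DRA. No probe set was assigned to DLA-DRB1.

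Among genes of antigen processing, IFI30, a lysosomal thiol reductase that unfolds antigens, was 10.63, 12.35 and 14.16 in static dogs, against 12.26, 13.14 and 13.93 in ongoing dogs (difference -0.74 ± 0.28, unadjusted p = 0.0127). CD74, the invariant chain that guards the empty groove, ranged over 10.76 to 14.29 in static dogs, against 12.20 to 14.40 in ongoing dogs, and its difference of -0.49 ± 0.33 had an unadjusted p of 0.145. CTSS, the protease that trims the invariant chain, differed by 0.08.

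Of the regulators of these genes, CIITA was 9.49, 9.87 and 10.18 in static dogs, against 9.70, 9.80 and 10.05 in ongoing dogs, a difference of 0.03 ± 0.06 (unadjusted p = 0.64). Its 2 probe sets differed, with static minus ongoing values of 0.03 and -0.43, so the choice of probe set sets its direction. With the mean of both the difference was -0.20 (unadjusted limma p = 0.0526). Among the RFX subunits that bind class II promoters, RFXANK differed by -0.24, RFX5 by -0.09 and RFXAP by 0.00. The NF-Y subunits NFYA, NFYB and NFYC differed by 0.09, 0.07 and -0.10. Across the 30 dogs CIITA was compared with 5 class II genes by the probe set that differed by 0.03. The other CIITA probe set was not compared with them. Only DLA-DQA1 gave an adjusted permutation p under 0.05, with a negative Pearson r of -0.48 (p = 0.0081, adjusted p = 0.0405). Its Spearman rho was -0.34 (p = 0.0615, adjusted p = 0.308). Pearson r was -0.57 within static dogs and -0.06 within ongoing dogs, and -0.22 without the 2 dogs farthest from the median CIITA level, so the relation rests on those dogs. For CD74, DLA-DRA, DLA-DMA and DLA-DOA, r lay between -0.20 and 0.14, with adjusted permutation p of 0.628 to 0.679.

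**Figure D1:**
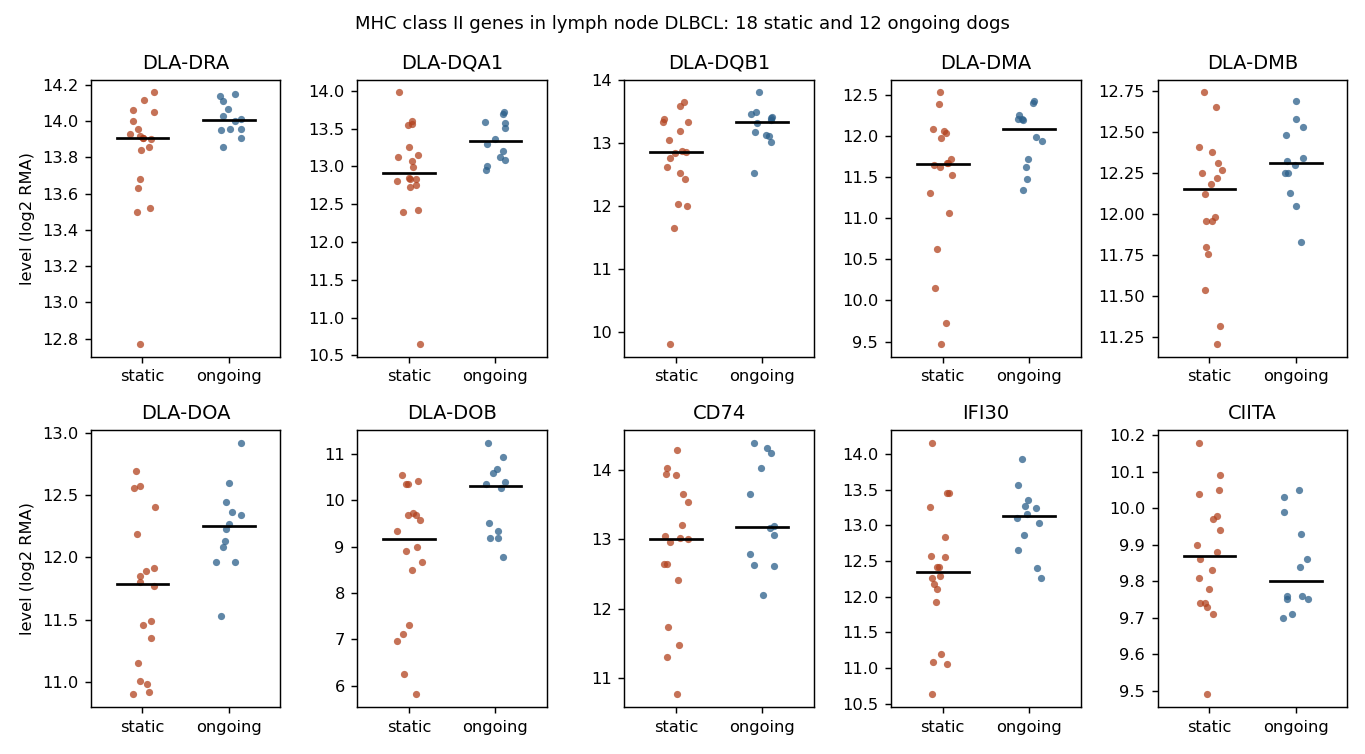
Levels (log2 RMA) of 10 MHC class II genes in each dog, static left and ongoing right, each point 1 dog and each line a group median. In DLA-DOB, 7 static dogs lie below the ongoing minimum of 8.78, while the CIITA probe set shown overlaps almost fully.

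Class II levels varied widely among static dogs. Dogs 17, 39, 14, 56 and 41 had the lowest MHC class II means, at 10.36, 10.78, 10.86, 10.90 and 10.91, and each had 9 to 11 of the 17 members below the lowest ongoing dog. At the other end, static dogs 55 and 22 had 0 members below it. Over all static dogs the median was 4 members. For a single gene, 6 or more of the 18 static dogs lay below the ongoing range in 9 of the 17 class II members and in 3.22% of all genes.

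Dog 17 had the lowest value of either group for DLA-DQB1 (9.81), DLA-DMA (9.47) and MEF2C (9.77), beside an MS4A1 of 12.66. In dog 39, DLA-DOB was at 5.81 and DLA-DMA at 9.73, while MS4A1 stood at 13.11. In dogs 17, 39 and 56 the Mature B-cell identity list averaged 9.86, 10.58 and 10.27, inside the ongoing range of 9.72 to 10.78, and in dogs 14 and 41 it averaged 9.47 and 9.17, below it. The array of dog 14 had the lowest mean correlation with the others (0.954), and dog 41 had a gap between 3' and 5' control probe sets of 3.77, where the other dogs reached at most 0.72. The part of array and RNA quality in these values was not tested.

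**Figure D2:**
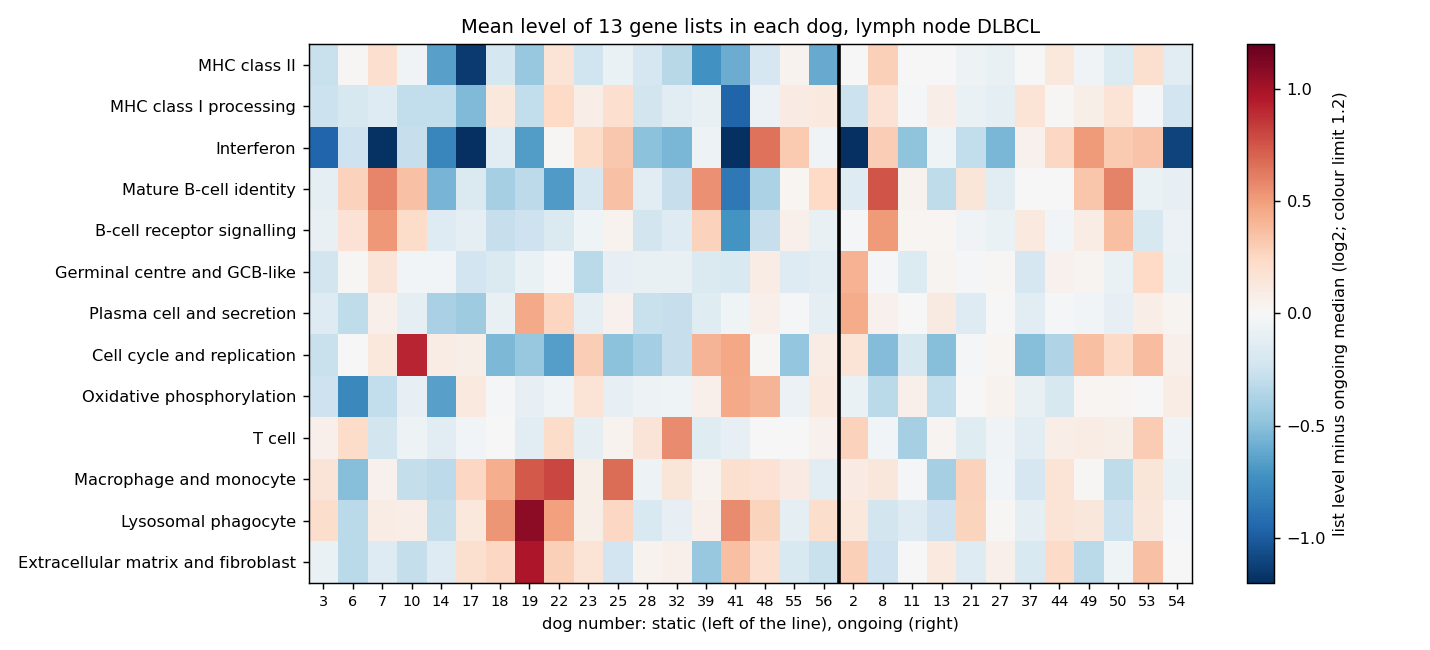
Mean level of 13 gene lists in each of the 30 dogs, static left of the black line and ongoing right, coloured by the log2 difference from the ongoing median, with colours saturating beyond the scale. In the class II row the darkest blue cells are static dogs 17, 39, 14, 56 and 41.

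The MHC class I processing list, the proteasome subunits and peptide transporters that load class I molecules, was lower in static dogs in 17 of 17 members, with a median of -0.13. None reached an unadjusted p under 0.05. The leading members were the transporter TAP1 (-0.19 ± 0.13), the proteasome activator PSME2 (-0.22 ± 0.15, with 2 of 3 probe sets lower) and the immunoproteasome subunit PSMB10 (-0.24 ± 0.16). Without dog 41, whose list level was the lowest at 10.61, the median was -0.078.

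Genes of the interferon response were lower in static dogs in 24 of 27 members, with a median of -0.14 and 0 members at an unadjusted p under 0.05. IFIT2, an antiviral RNA-binding protein, had the smallest p (6.25, 6.71 and 7.49 in static dogs, against 6.20, 7.00 and 7.82 in ongoing dogs). The list level spread widely in both groups, from 8.31 to 10.94 in static dogs and from 8.12 to 10.80 in ongoing dogs. Leaving out single dogs moved the median between -0.37, without ongoing dog 2, and -0.057, without static dog 17.

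B-cell genes were mostly lower in static dogs. In the Mature B-cell identity list 13 of 15 members were lower, with a median of -0.22 and 0 at an unadjusted p under 0.05. The leading members were the co-activator POU2AF1 (-0.32 ± 0.26), the lineage factor EBF1 (-0.22 ± 0.19) and the receptor chain CD79A (-0.41 ± 0.36). Without dog 22 the median was -0.10. The list's mean level was 9.17, 9.88 and 10.61 in static dogs, against 9.72, 10.03 and 10.78 in ongoing dogs. For it 6 static dogs lay below the ongoing range, and for the mean over all genes 4 did. The NF-kB, plasma cell and hypermutation lists, described below, also had 6.

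Signalling genes downstream of the B-cell receptor were lower in 18 of 22 members, median -0.12, with 2 at an unadjusted p under 0.05. These were the adaptor GRB2 (9.88, 10.45 and 11.70 in static dogs, against 10.25, 10.87 and 11.48 in ongoing dogs) and the phospholipase PLCG2 (10.75, 11.26 and 11.69 in static dogs, against 11.02, 11.52 and 12.04 in ongoing dogs). Their differences were -0.40 ± 0.13 and -0.31 ± 0.11, at unadjusted p of 0.00433 and 0.00676. The kinase LYN differed by -0.16 ± 0.10. In the NF-kB list 21 of 26 members were lower, median -0.10, with 1 at an unadjusted p under 0.05. That member was CD40, the receptor for T-cell help, at 9.40, 10.43 and 11.08 in static dogs, against 10.36, 10.64 and 11.17 in ongoing dogs (difference -0.32 ± 0.13, unadjusted p = 0.0199). In 8 static dogs CD40 was below every ongoing dog, and 0.516% of all genes had 8 or more such dogs. Without ongoing dog 8 the medians of the B-cell receptor signalling and NF-kB targets and subunits lists were -0.079 and -0.06. The lymphotoxin genes LTA and LTB, cytokines that organise lymphoid tissue, differed by -0.36 ± 0.17 and -0.60 ± 0.30, and the other LTB probe set by 0.04.

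The signatures that sort human DLBCL by cell of origin gave small medians. Of 27 germinal centre genes 9 were higher and 18 lower in static dogs, median -0.049, and of 24 activated B-cell-like genes 7 were higher and 17 lower, median -0.082. In each list 1 member was lower at an unadjusted p under 0.05, MEF2C among the first and IL16 among the second. The median of the Germinal centre and GCB-like list was -0.014 without ongoing dog 13 and -0.084 without ongoing dog 8. BCL6, the master repressor of the germinal centre, was 7.45, 8.67 and 10.35 in static dogs, against 7.75, 8.80 and 11.58 in ongoing dogs, a difference of -0.19 ± 0.34. MME, the germinal centre marker CD10, differed by -0.04 ± 0.09 and PRDM1, the driver of plasma cell differentiation, by -0.04 ± 0.09. The activated-type gene IL16 differed by -0.34 ± 0.14 (unadjusted p = 0.0237) and the naive B-cell receptor FCER2 by -0.21 ± 0.10 (unadjusted p = 0.0384).

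The 26 measured genes of hypermutation and class switching, mainly DNA repair factors, were 10 higher and 16 lower in static dogs, median -0.042, with 0 at an unadjusted p under 0.05. That median changed sign without static dog 18 (0.00058). The list level was 9.44, 9.69 and 10.02 in static dogs, against 9.64, 9.77 and 9.89 in ongoing dogs.

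Proliferation and growth genes showed no common direction. Of 42 cell cycle genes 22 were higher and 20 lower in static dogs, median 0.009, and of 27 MYC and ribosome biogenesis genes 11 were higher and 16 lower, median -0.011, and both medians crossed 0 when single dogs were left out. MYC was 10.51, 11.56 and 12.39 in static dogs, against 10.87, 11.57 and 12.06 in ongoing dogs. The spindle gene TPX2 differed by 0.14 ± 0.19 and the survival gene BCL2 by -0.03 ± 0.19. Glycolysis genes had a median of -0.02, which was 0.00051 without static dog 22, with the glucose transporter SLC2A1 at -0.16 ± 0.06 (unadjusted p = 0.00816).

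The highest list medians belonged to genes of phagocytes. The lysosomal phagocyte list was higher in 17 of 23 members, median 0.12, and the macrophage and monocyte list in 19 of 22, median 0.11, with 2 members each at an unadjusted p under 0.05 (background 0.986%). GPNMB, a glycoprotein of lipid-laden macrophages, was 7.31, 8.88 and 10.73 in static dogs, against 6.86, 7.91 and 9.05 in ongoing dogs. The difference of 1.01 ± 0.29 (unadjusted p = 0.00144) made the static level 2.01 times the ongoing one. For GPNMB 9 static dogs lay above the ongoing range, and 0.245% of all genes had 9 or more above it. MSR1, a macrophage scavenger receptor, was 4.45, 5.26 and 7.77 in static dogs, against 4.38, 4.69 and 7.03 in ongoing dogs (difference 0.72 ± 0.31, unadjusted p = 0.0293). Only 3 static dogs lay above the ongoing range for MSR1. Both MSR1 medians were low, below those of the granulocyte gene MPO, whose mean was at percentile 14.5 among genes. VSIG4, a complement receptor of resident macrophages, differed by 0.27 ± 0.12, and the protease CTSB by 0.22 ± 0.09, at unadjusted p of 0.0362 and 0.0281. TREM2, a lipid receptor, differed by 0.41 ± 0.21.

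The defining macrophage markers moved less than these genes. CD14 differed by 0.08 ± 0.14 and CD68 by 0.09 ± 0.27 (its other probe set by -0.03), and CSF1R was at a median of 7.61 in static and 7.63 in ongoing dogs. The mean level of the macrophage list was 7.57, 8.20 and 8.88 in static dogs, against 7.68, 8.08 and 8.36 in ongoing dogs. For it 4 static dogs lay above the ongoing range, and for the mean over all genes 0 did. Without static dog 22 the median difference of the Macrophage and monocyte list was 0.062. Its part in the lower class II and B-cell levels was not tested. Dog 19 carried the highest lysosomal phagocyte level (10.20) and the highest GPNMB (10.73).

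Markers of other cell types had medians closer to 0. T-cell genes were higher in 10 and lower in 19 of 29, median -0.029, although CD2, an adhesion receptor of T cells, differed by 0.50 ± 0.25 (unadjusted p = 0.057). Extracellular matrix genes had a median of 0.019 and endothelial genes of -0.0012, and these medians and that of T-cell genes crossed 0 when single dogs were left out. Granulocyte genes had a median of -0.098, which was -0.15 without static dog 19 and -0.053 without ongoing dog 11, with the adhesion gene CEACAM1 higher at 0.18 ± 0.06 and the antimicrobial peptide gene CAMP lower at -0.30 ± 0.13, unadjusted p of 0.00942 and 0.0254. The stromal collagen COL1A1 ranged over 4.62 to 10.56 in static and 5.24 to 8.99 in ongoing dogs, and its difference of -0.12 ± 0.49 was far within that spread.

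**Figure D3:**
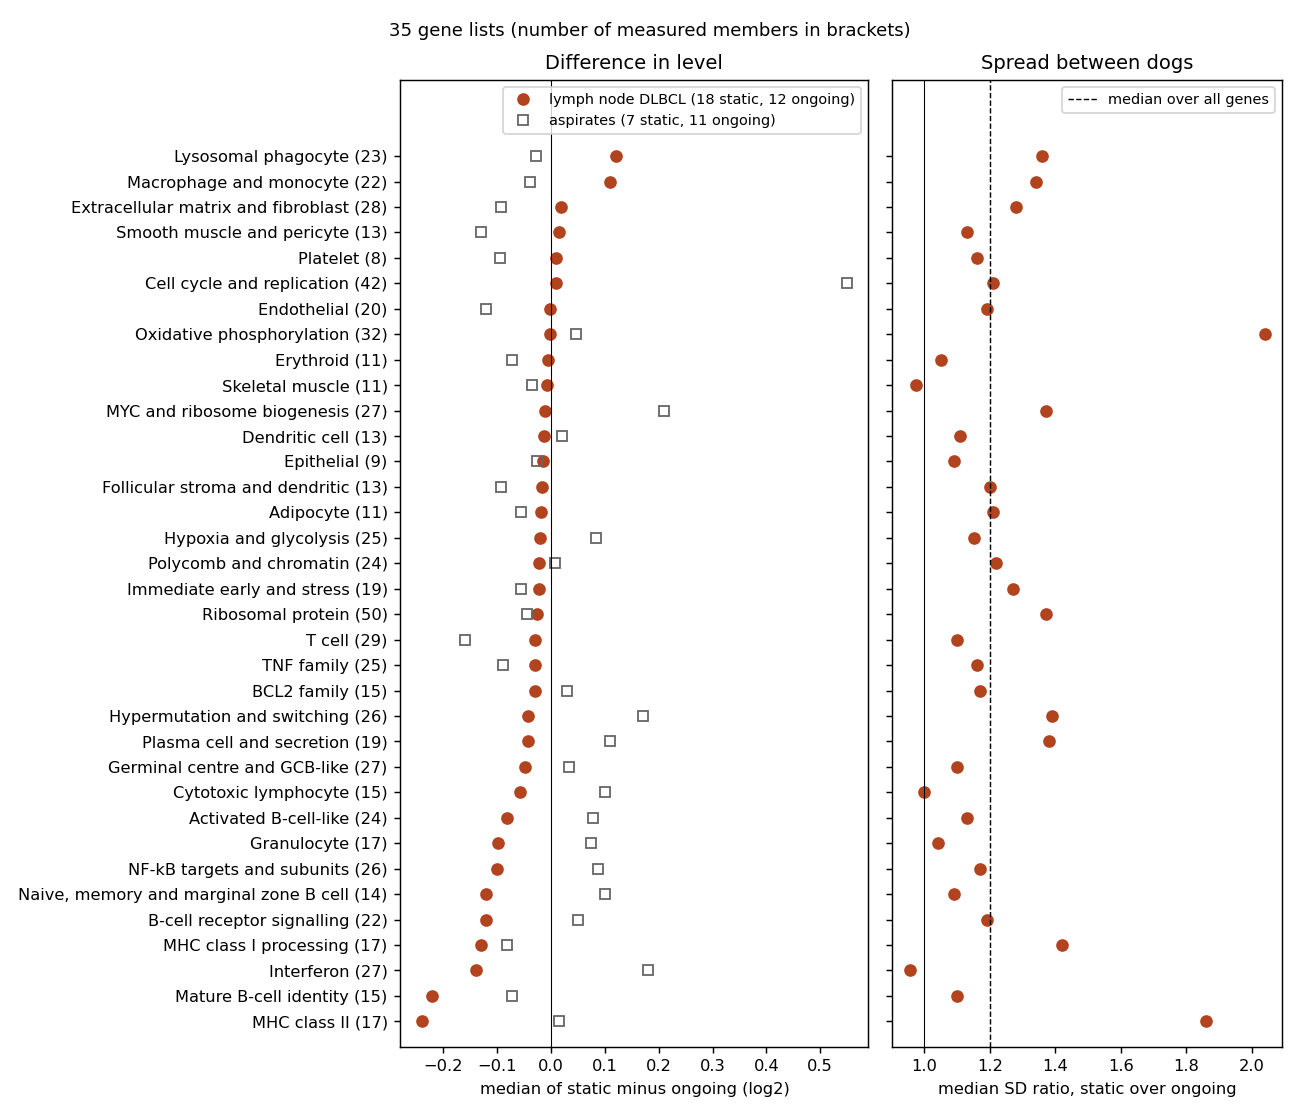
Left, the median log2 difference, static minus ongoing, of 35 gene lists in lymph node DLBCL (filled) and aspirates (open); right, the median ratio of the static to the ongoing SD in lymph node DLBCL. Class II and mature B-cell lists have the lowest lymph node medians (-0.24 and -0.22), the 2 phagocyte lists the highest.

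Among single genes, MEF2C had the smallest p of those lower in static dogs. MEF2C, a transcription factor that acts downstream of the B-cell receptor and in germinal centres, was 9.77, 10.78 and 11.45 in static dogs, against 10.97, 11.30 and 11.90 in ongoing dogs. In 11 of 18 static dogs it was below every ongoing dog, as many as in only 4 genes of the array (0.0265%). The difference was -0.57 ± 0.15 (unadjusted p = 0.000703), and all 5 probe sets were lower. IL17RA, the interleukin 17 receptor, also had 11 static dogs below the ongoing range (8.71, 9.05 and 9.51 in static dogs, against 9.08, 9.40 and 9.81 in ongoing dogs; difference -0.30 ± 0.08, unadjusted p = 0.000922). Of its 3 probe sets 2 were lower, and the other differed by 0.06. The others were NOTCH3, a receptor of vascular smooth muscle (-0.17 ± 0.06), and SRP19, a part of the signal recognition particle (-0.11), named after its values were seen. SCIMP, an adaptor that binds MHC class II signalling complexes in B cells, differed by -0.34 ± 0.11 (unadjusted p = 0.00327), and its other probe set by 0.01. The remaining genes with small p on the lower side were P2RY1, IMPACT, POM121C, SMAP2, GRB2, PDLIM2 and CYB5D1, with differences between -1.34 and -0.14.

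Several of the largest differences were in genes with higher levels in some dogs of both groups and lower levels in others. MEIS2, a homeobox factor, was 4.28, 6.08 and 12.47 in static dogs, against 4.95, 9.14 and 11.29 in ongoing dogs (difference -1.88 ± 0.78, unadjusted p = 0.0217). IMPACT, a translational regulator, was 3.65, 4.32 and 7.12 in static dogs, against 3.74, 6.10 and 8.08 in ongoing dogs (difference -1.34 ± 0.40, unadjusted p = 0.00222). Its medians were low, below the 6.46 of the macrophage gene CD163, whose mean was at percentile 25.2 among genes. The ranges of the groups overlapped in MEIS2 and in IMPACT, and the medians were further apart than the extremes.

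JCHAIN, which joins secreted IgM and IgA into polymers, was 9.19, 10.87 and 14.01 in static dogs, against 9.81, 12.92 and 13.80 in ongoing dogs. The difference was -1.27 ± 0.46 (unadjusted p = 0.00941), with 3 of 3 probe sets lower. Other secretory genes differed less, SLAMF7 by -0.27 ± 0.15 (2 of 3 probe sets lower) and the signal peptidase subunit SEC11C by -0.27 ± 0.16, and the plasma cell list had a median of -0.043, which ranged over -0.072 without static dog 25 to -0.028 without ongoing dog 13. CASP12, an inflammatory caspase gene, differed by -1.14 ± 0.55 (unadjusted p = 0.0464).

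On the higher side, YBX3, a cold-shock RNA-binding protein, was 6.28, 11.17 and 11.97 in static dogs, against 6.44, 9.50 and 11.72 in ongoing dogs (difference 1.37 ± 0.63, unadjusted p = 0.038). The mitochondrial transport gene MGARP differed by 0.93 ± 0.44 and PDK4, a kinase that shuts glucose carbon out of mitochondria, by 0.63 ± 0.27. The smallest p on this side belonged to SYT10, a synaptotagmin, at 5.01, 5.20 and 5.34 in static dogs, against 4.95, 5.03 and 5.15 in ongoing dogs (difference 0.16 ± 0.04, unadjusted p = 0.000128). SERPINA14, LRIT3 and ADRA1A differed by 0.20, 0.18 and 0.15. The levels of SYT10, LRIT3 and ADRA1A were low, below that of the macrophage gene CD163, whose mean was at percentile 25.2 among genes. The remaining named genes were ECM2, MMP13, THRB, ECSCR and OR10A5D, at 0.11 to 0.32, and in MMP13 and THRB the probe sets disagreed in direction.

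**Figure D4:**
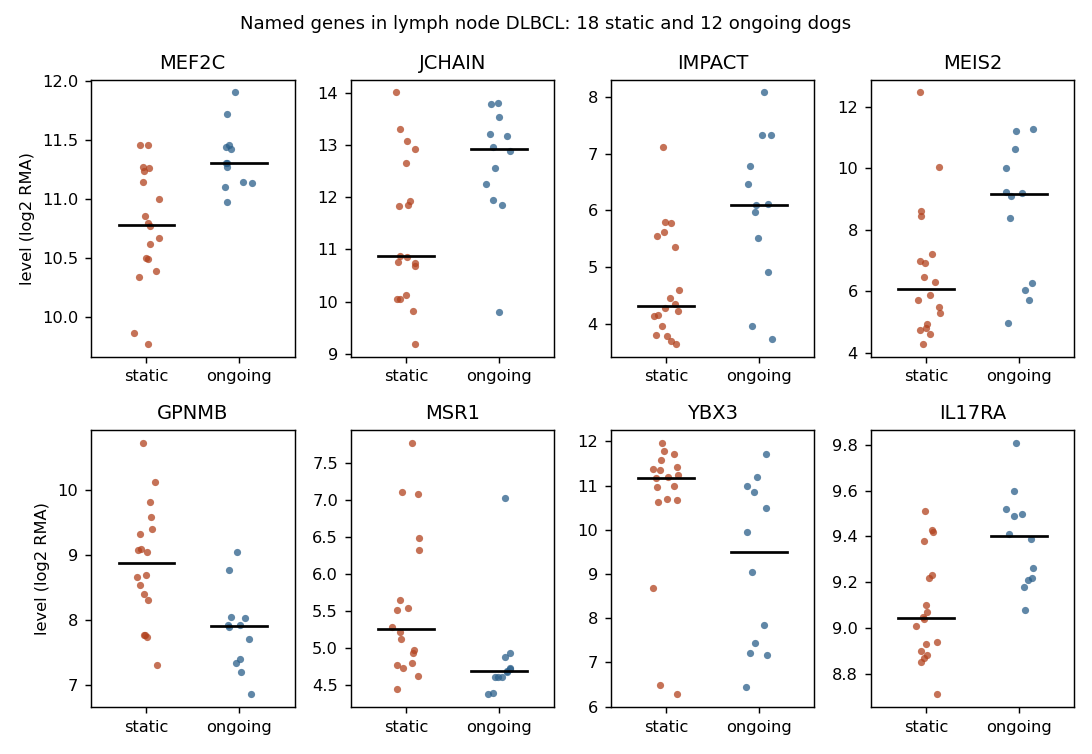
Levels (log2 RMA) of 8 named genes in each dog, static left and ongoing right, with group medians as lines. MEF2C and IL17RA each have 11 static dogs below the ongoing minimum, and in MEIS2 and IMPACT the ranges of the groups overlap.

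Static dogs differed from one another more than ongoing dogs did. The SD was larger in static dogs in 10883 genes, 72.0% of all, with a median ratio of 1.2. A test of the spread, limma on absolute deviations from the group mean, called 0 genes (0%). At an unadjusted p under 0.05 it found 946 genes wider in static dogs (6.26%) and 171 narrower (1.13%). The 3 arrays that correlated least with the others were all from static dogs (14, 7 and 25, mean correlation 0.954 to 0.960), and without them the SD was larger in static dogs in 61.8% of genes, median ratio 1.10.

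Class II genes had a larger SD in static dogs in 17 of 17 members, with a median ratio of 1.86, and 8 of 17 were wider at an unadjusted p under 0.05 where the background was 6.26%. Without those 3 arrays the ratio was again 1.86 and the count 17 of 17. DLA-DRA had a ratio of 3.51, DLA-DQB1 of 2.86 and DLA-DQA1 of 2.6. Static dog 17 enlarged these 3 ratios, and without it they were 2.12, 1.81 and 1.59. The larger SD was still in static dogs in 17 of 17 members when it was left out, with a median ratio of 1.74. Oxidative phosphorylation genes, subunits of the mitochondrial respiratory chain, were more variable in static dogs in 30 of 32 members (median ratio 2.04) with no direction of level, 16 being higher and 16 lower. Interferon genes had a median ratio of 0.956.

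The genes with the smallest p for spread were, on the wider side, PFKM (SD 0.34 in static against 0.14 in ongoing dogs), PADI1, SPP1, PIGR and FSIP1. SPP1, which encodes osteopontin, ranged over 5.12 to 9.88 in static dogs, against 5.24 to 7.74 in ongoing dogs. In SPP1 8 static dogs exceeded the ongoing range, and 0.576% of all genes had 8 or more above it. On the narrower side were LRRC8A (SD 0.18 in static against 0.41 in ongoing dogs), ZBTB25, CAMLG, METTL2A and LRRC63. All 10 had an adjusted p of 0.662.

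The aspirates, 7 static and 11 ongoing dogs whose pathology diagnosis is given as unknown, were compared in the same way. Of the 275 genes at an unadjusted p under 0.05 in lymph nodes, 109 (39.6%) had the same sign in aspirates, against 48.6% of all genes, and 8 of those also had an unadjusted p under 0.05 there, a p that 14.1% of all genes had. The difference between the lymph node and aspirate contrasts, fitted over 48 arrays, was called in 2 genes (0.0132%). At an unadjusted p under 0.05, 660 genes had the higher contrast in lymph nodes (4.37%) and 895 the lower one (5.92%).

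CLK3, a kinase that phosphorylates splicing factors, was 9.11, 9.41 and 9.59 in static and 8.94, 9.26 and 9.79 in ongoing lymph nodes. In aspirates it was 8.53, 8.97 and 9.19 in static dogs, against 9.27, 9.56 and 9.94 in ongoing dogs. These aspirate values are part of the contrast by which the gene was picked. The contrasts were 0.13 in lymph nodes and -0.66 in aspirates, and they differed by 0.79 ± 0.12 (limma adjusted p = 0.000368). ATF7IP2, which encodes a chromatin-binding partner of a transcription factor, was 7.28, 8.09 and 8.73 in static and 7.89, 8.39 and 9.19 in ongoing lymph nodes. In aspirates it was 8.20, 8.51 and 8.64 in static dogs, against 7.26, 7.80 and 8.30 in ongoing dogs, where the ranges overlapped slightly. The contrasts were -0.29 in lymph nodes and 0.71 in aspirates, a difference of -1.0 ± 0.19 (limma adjusted p = 0.0181). Without the 2 arrays of lowest mean correlation the ATF7IP2 call was lost (adjusted p = 0.0886), as it was without static aspirate dog 9, 29 or 40. The next genes, CLN3, DNAJB12, HEMK1 and FAM166A on the higher side and ATP6V1A, MAN1A2, PRKAB2 and RASAL2 on the lower side, had adjusted p of 0.116 to 0.125.

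Class II genes were 9 higher and 8 lower in static aspirates (median 0.015), and 2 of 17 had an unadjusted p under 0.05 for the difference between specimens, a share near the 10.3% of all genes. These were IFI30 and DLA-DQA1, at -0.74 and -0.42 in lymph nodes against 0.34 and 0.39 in aspirates. Neither passed the adjusted test. DLA-DOA went the same way in both, at -0.52 in lymph nodes and -0.54 in aspirates. Cell cycle genes were 41 higher and 1 lower in static aspirates, median 0.55, against 0.009 in lymph nodes, and 21 of 42 had an unadjusted p under 0.05 for the difference, against 10.3% of all genes. The macrophage list was 9 higher and 13 lower in aspirates.

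Follow-up was recorded as times without a stated unit. Indicator 1 was taken to mark an event, since all 8 dogs in the series with progression indicator 0 had equal progression-free and overall times. Progression-free survival (PFS) had a median of 178 in static dogs (17 dogs, 16 events) and 247.5 in ongoing dogs (12 dogs, 10 events). For 1 static dog no follow-up entered the fit. The hazard ratio, static over ongoing, was 2.00 (95% interval 0.863 to 4.63), with a two-sided log-rank permutation p of 0.0974. Overall survival (OS) had a median of 215 in static dogs (14 events) and 493 in ongoing dogs (8 events), a hazard ratio of 2.01 (0.792 to 5.12) and p = 0.136. Neither difference passed 0.05. Without ongoing dog 53 the PFS p was 0.0462, the only 1 of 29 such fits under 0.05. With Peto-Peto weights the permutation p was 0.257 for PFS and 0.358 for OS, and each interval holds ratios from below 1 to above 4.

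**Figure D5:**
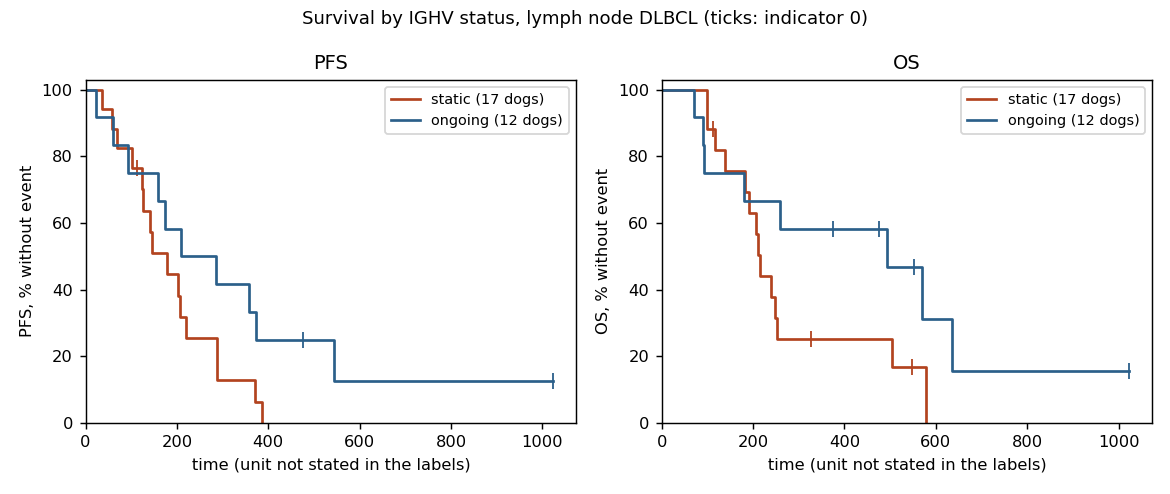
Kaplan-Meier curves of PFS and OS in 17 static and 12 ongoing dogs with lymph node DLBCL, the time axis in the labels' unstated unit and ticks marking indicator 0. The curves cross early and then separate, with medians of 178 static against 247.5 ongoing for PFS and 215 against 493 for OS.

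RNA integrity was compared by control probe sets. The gap between 3' and 5' control probe sets of GAPDH and beta-actin averaged 0.61 ± 0.81 in static dogs and 0.45 ± 0.17 in ongoing dogs (SD, n = 18 and 12; permutation p = 0.783). Static dog 41 stood apart at 3.77, where the next static dog was at 0.66 and ongoing dogs lay between 0.21 and 0.72. Without dog 41 the p was 0.68, the class II median was -0.26 and the mature B-cell median was -0.13.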

How the data were processed

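Total RNA of each dog was hybridised to 1 Affymetrix canine array. Per the submitters' processing notes, the deposited log2 values were made with Affymetrix Expression Console and RMA, with no version given. The table held 43035 probe sets on 58 arrays with 0 missing values and no columns of other series. Array medians of the 30 arrays lay between 7.11 and 7.20. The number of arrays limits the precision.

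GEO's platform annotation gave 29254 probe sets 1 symbol, 439 several and 13231 none, beside 111 controls. For each of the 15115 genes, the probe set that averaged highest across the 58 arrays was used. Static and ongoing dogs were compared with limma 3.58.1 in R 4.3.3 (lmFit and eBayes, Benjamini-Hochberg adjustment, threshold 0.05). The comparison with aspirates pooled the spread of 4 groups. Survival was tested with survival 3.8.3 and 100000 permutations, as were correlations and RNA integrity. Scripts were tested on simulated data.

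Named genes were the 10 each way with the smallest p, the 5 each way with the largest difference at an unadjusted p under 0.05, the 3 members with the smallest p of each list, 5 each way in the spread and specimen fits, and a preset group of 30, where 5 lacked a probe set. Members and lists were chosen with earlier results of these data known. The labels give no batch. Alternatives covered probe set choice, filtering, normalization, weights, RNA integrity, other samples and each dog left out.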

Additional observations from a re-analysis of the deposited data

Results flagged for a closer look

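CLK3 differed between specimens by 0.79, the lymph node contrast of 0.13 minus the aspirate contrast of -0.66. It was called in all 48 fits that left out 1 dog, with an adjusted p of at most 0.00204. ATF7IP2 differed by -1.0, at -0.29 in lymph nodes and 0.71 in aspirates. It was called in 45 of the 48 such fits, with an adjusted p of at most 0.0601, and the 3 others left out a static aspirate each (dogs 9, 29 and 40).

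Among static aspirates, dog 42 had an MHC class II level of 10.69, far below the other static aspirates, whose group median was 11.46. Dixon's test of the lowest and highest dog was applied to 12 sets of values and marked only this one. Chance marks about 1 in 20 groups.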

How the results depend on the processing

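No alternative called a gene between static and ongoing lymph nodes. The 275 genes at an unadjusted p under 0.05 became 878 with each probe set tested alone (more features), 175 with a filter on low genes (fewer genes), 487 with array weights and 224 to 332 with a dog left out. The cause was not tested for the weights. For spread, 0 genes were called either way, and 706 had an unadjusted p under 0.05 around the group median, against 1117 around the mean. The 2 genes that differed between specimens became 1 without the 2 arrays of lowest mean correlation (ATF7IP2 -0.95, adjusted p 0.0886). They became 1 to 5 with a dog left out, chosen after seeing the data. In such fits CLN3 (0.90), MAN1A2 (-0.58), RASAL2, HEMK1, DNAJB12 or FLVCR1 could pass. Hazard ratios with a dog left out were 1.69 to 2.31 for PFS (p 0.0462 to 0.209) and 1.67 to 2.41 for OS (p 0.0651 to 0.262). The integrity gap reversed to -0.027 without dog 41. CIITA correlations with a dog left out ranged over -0.18 to 0.24 for CD74, -0.33 to 0.20 for DLA-DRA, -0.51 to -0.28 for DLA-DQA1, -0.29 to 0.12 for DLA-DMA and -0.02 to 0.32 for DLA-DOA. Of 1058 alternatives of named genes, 22 reversed, in 12 genes. With the mean of probe sets these were CIITA (-0.20), PAX5 (-0.057), CD8A (0.029) and COL1A1 (0.013). With array weights they were CD3E (0.011), CD8A (0.023), TPX2 (-0.0089) and BCL2 (0.038). RFXAP was 0.027 with integrity as covariate, 0.027 without dog 41 and 0.012 after quantile normalization. With MZL nodes added, PRDM1 was 0.0034 and COL1A1 0.14, and COL1A1 was 0.087 without the 3 least correlated arrays, chosen after seeing the data, as was leaving dog 17 out of the class II spread. With a dog left out, ranges were RFXAP -0.048 to 0.04, BCL6 -0.30 to 0.052, PRDM1 -0.072 to 0.012, CD8A -0.092 to 0.022, COL1A1 -0.32 to 0.044, MYC -0.013 to 0.11 and BCL2 -0.095 to 0.088, and CD68 fell as low as -0.014. The cause was not tested. The class II median stayed between -0.28 and -0.18. Of 35 list medians, 15 kept their sign in every setting, among them those of MHC class I, interferon, B-cell, NF-kB and both phagocyte lists, and 20 crossed 0 in at least 1, among them cell cycle, T-cell, hypermutation and oxidative phosphorylation. No paired analysis was possible because each dog is in 1 group and replicate numbers follow accession order.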

Other observations

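The single static MZL node, dog 58, was outside the main comparisons and entered only alternatives that added other samples, such as MZL nodes. Its MHC class II level was 10.5, against 11.47 to 11.53 in the 4 ongoing MZL nodes. DLA-DQB1 was 10.59 in that dog, against 13.08 to 13.63 in ongoing MZL nodes, and DLA-DOB was 6.53 there, against 9.68 to 10.49. Its CIITA was 9.73, against 9.81 to 10.03 in ongoing MZL nodes. Its MEF2C was 11.40, above the ongoing MZL nodes at 10.72 to 11.25, so MEF2C was not lower in this static node. Both values were inside the ranges of static and of ongoing DLBCL nodes. With 1 dog there is no test. The 2 DLBCL nodes labelled ND had class II levels of 11.42 and 11.10.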
